A study of Mus musculus with 8 samples.

Results

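The 10 genes described here were the 4 Tcf/Lef transcription factor genes Lef1, Tcf7, Tcf7l1 and Tcf7l2, the Wnt target genes Axin2, Sp5 and Nkd1, and the Wnt ligand genes Wnt3, Wnt3a and Wnt8a. They were chosen by name and are 10 of 21887 protein-coding genes. A gene counted as marked when a deposited peak lay in the gene or within 10 kb of it in mouse build mm10. The cells were mouse embryonic stem cells of strain 129/Ola, plated on gelatin and differentiated without serum in N2B27, a medium that favours neural fates. Chromatin immunoprecipitation and sequencing (ChIP-seq) mapped H3ac, the acetylated form of histone H3 that is found at active promoters and enhancers, on days 2, 4 and 6 of differentiation. The histone deacetylase HDAC1, carried as a FLAG-tagged protein, was mapped on day 2. There was 1 ChIP library for each target and day, each labelled with its own input, so no difference between days or targets has a replicate check.

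Wnt ligands are secreted proteins that, through Frizzled receptors and Lrp coreceptors, stop the breakdown of beta-catenin. Beta-catenin then enters the nucleus and joins Tcf/Lef factors, which bind DNA through an HMG box. Without beta-catenin the same factors hold Groucho-type (Tle) corepressors, which can recruit histone deacetylases. In embryonic stem cells Tcf7l1 is known mainly as a repressor of pluripotency genes, and Axin2, Sp5 and Nkd1 are widely used as readouts of Wnt signalling, Axin2 and Nkd1 being feedback inhibitors of the pathway and Sp5 a transcription factor.

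The H3ac lists of days 2, 4 and 6 held 17368, 12945 and 5553 peaks, and the HDAC1 list held 5286. Peak scores are the authors' own, start at 50, and rank peaks only within their list. Their medians were 80.21, 101.61, 123.73 and 65.37. H3ac peaks were wider on later days, with medians of 591, 792 and 1898 bp. A gene without a listed peak can still carry the mark below the caller's threshold. Of the marker genes checked in the same windows, pluripotency genes gave 6, 4 and 2 of 6 on days 2, 4 and 6. The numbers were 2, 6 and 3 of 6 for neural progenitor genes, 0, 1 and 0 of 6 for mesendoderm genes, 3, 0 and 0 of 6 for trophoblast genes, and 2, 2 and 1 of 6 for extraembryonic endoderm genes. Over all protein-coding genes the shares were 54.7%, 50.5% and 30.8%.

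H3ac was listed at 8 of the 10 genes on day 2, at 7 on day 4 and at 3 on day 6. When each list was cut to its 5286 best-scoring peaks, the length of the HDAC1 list, the counts were 3, 3 and 3, not of the same genes each day. The share of all protein-coding genes was not taken for the cut lists. With the full lists, 54.7%, 50.5% and 30.8% of all protein-coding genes were called on these days. HDAC1 was listed at 3 of the 10, against 21.5% of all genes. Lef1, Tcf7, Tcf7l2, Wnt3 and Wnt8a had H3ac on days 2 and 4 and none on day 6, a pattern seen at 17.6% of all genes. Axin2 and Tcf7l1 had a peak on all 3 days (27% of all genes), Wnt3a had peaks on days 2 and 6 but not on day 4 (1.48%), and Sp5 and Nkd1 had none on any day (38.7%). Among the 8 genes marked on day 2, 7 were also marked on day 4 and 3 on day 6. The shares over all 11963 genes with a day 2 peak were 81.7% and 52.1%. With 10 genes and 1 library a day, these counts were not tested.

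Start sites were also taken from RefSeq promoters of GRCm38.p6, the assembly of mm10, which matched 9 of the 10 genes. Within 1 kb of a start site, H3ac was listed at 5 of these 9 on day 2 (Lef1, Tcf7l1, Tcf7l2, Axin2, Wnt3), at 6 on day 4 (the same 5 and Tcf7) and at 2 on day 6 (Axin2 and Wnt3a). Of the 17492 protein-coding genes with a start site, 42.4%, 40.3% and 24.1% were called by this rule. HDAC1 met it at Lef1 alone, against 9.58% of genes. Of the 35 H3ac peaks of the 9 genes over the 3 days, 17 (48.6%) lay within 1 kb of a start, against 55.5% of the 43087 pairs of a gene and an H3ac peak over all genes with a start site.

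**Figure D1:**
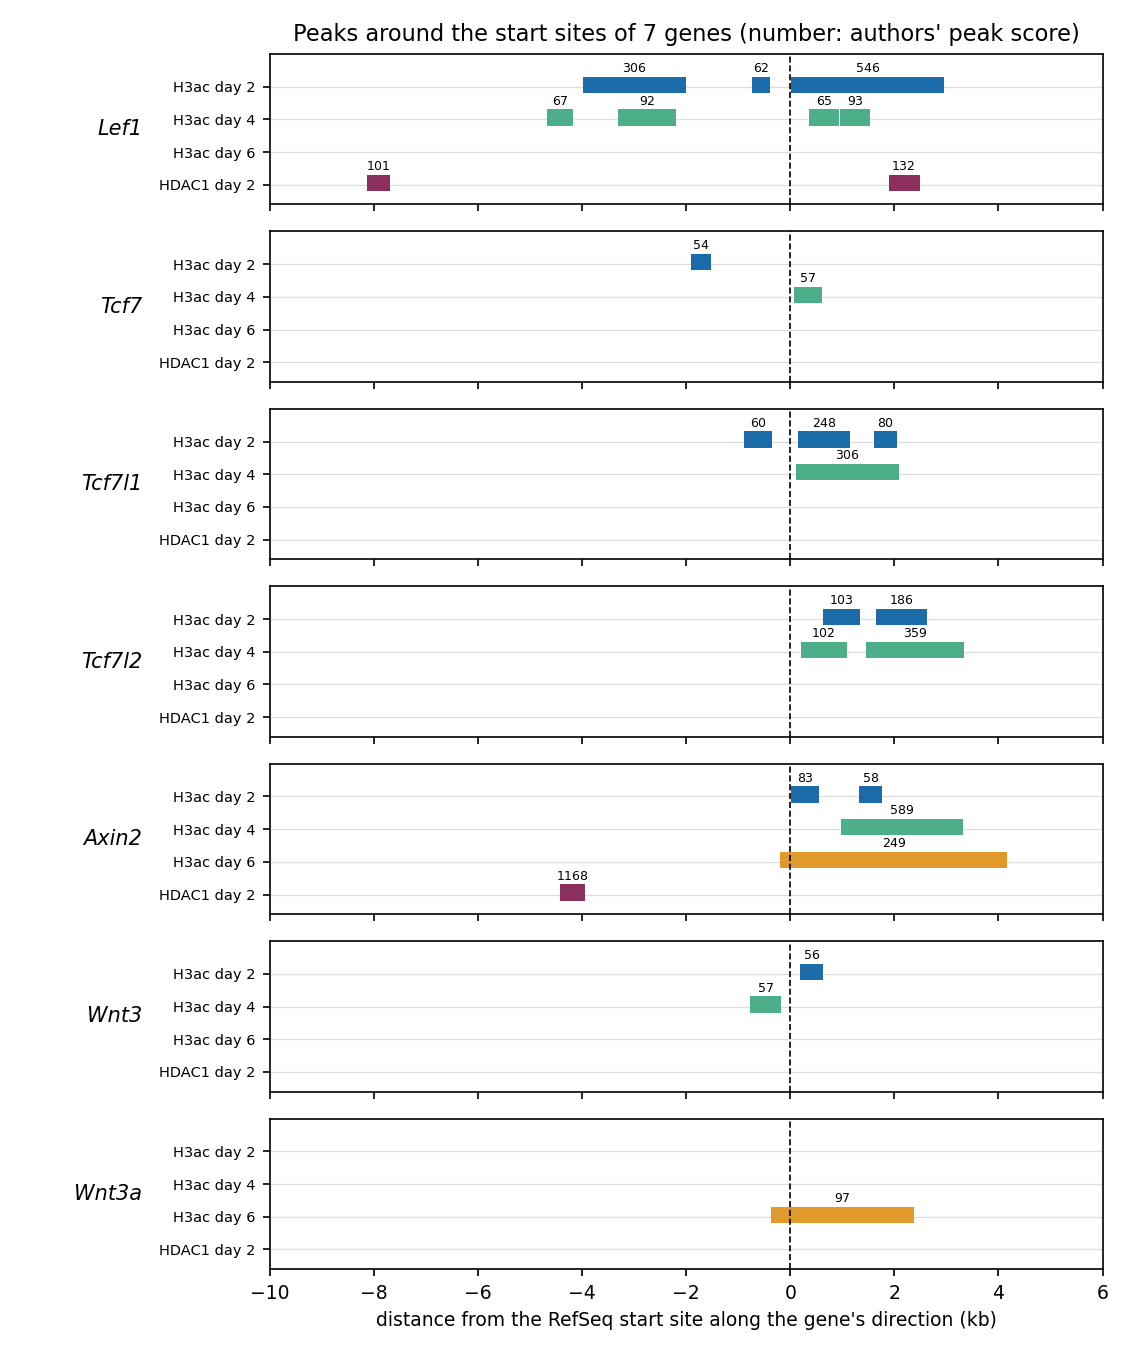
Peaks with a midpoint from 10 kb before to 6 kb after the RefSeq start site of 7 genes (x axis, kb along the direction of the gene). The outermost start is used where a gene has several. There is 1 line per peak list, with the authors' score above each bar. The Wnt3a day 2 peak that lay 9822 bp upstream is not drawn, because its midpoint lies beyond 10 kb. On day 6 only Axin2 and Wnt3a have a bar in this window, and each covers the start site.

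Lef1, which encodes lymphoid enhancer-binding factor 1, had the strongest day 2 acetylation of the 4 Tcf/Lef genes. It lies on chromosome 3 from 131110297 to 131224357, with its start at the lower coordinate. Its main day 2 peak ran from 131110315 to 131113257, scored 546.11 and ranked 271 of 17368. The peak was 2943 bp wide, and 0.248% of day 2 peaks were at least as wide. It reached over the start sites at 131110323 and 131112791. A further day 2 peak of score 306.33 (131106313 to 131108286, rank 1168) lay 2011 bp upstream of the gene and overlapped the non-coding gene Gm36603, and a small one of score 62.13 lay 395 bp upstream.

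On day 4 Lef1 held 4 H3ac peaks of 500 to 1123 bp, and the one from 131105625 to 131106124 lay upstream of all its day 2 peaks. The best of them scored 93.37 and ranked 7001 of 12945, below the median of its list. It ran from 131111244 to 131111833, just after another day 4 peak from 131110662 to 131111239. Its score and rank are therefore those of 1 of 2 adjoining peaks. The bases under H3ac peaks in the gene and 10 kb either side came to 5265 on day 2, 2791 on day 4 and 0 on day 6. The nearest day 6 peak was 401 kb from the gene. Within its own list, the best Lef1 peak stood at the 98.4 percentile of scores for day 2 and at the 45.9 percentile for day 4. Ranks from lists of different lengths cannot show whether acetylation changed between days.

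HDAC1 was listed at Lef1 in 3 places, the largest number among the 10 genes. The strongest HDAC1 peak, from 131112190 to 131112780, scored 131.85 (rank 463 of 5286). It lay inside the main day 2 H3ac peak and ended 11 bp before the start site at 131112791. The others lay 7703 bp upstream of the gene (score 101.28, inside Gm36603) and in the gene body from 131143265 to 131143625 (score 70.35), and neither overlapped an H3ac peak of any day.

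The 250 bases before the start sites at 131110297 and 131112791 are printed because the main day 2 H3ac peak began just after the former start and covered the bases before the latter, where HDAC1 was also listed. They lie at chr3:131110047-131110296 and chr3:131112541-131112790 on the plus strand. Capitals, here and below, mark any of the Tcf/Lef-type letters CTTTGAA or CTTTGAT or CTTTGTA or CTTTGTT on either strand. Neither sequence holds such a run. The sequences are those of the reference strain C57BL/6J, not of 129/Ola.
Lef1, start 131110297: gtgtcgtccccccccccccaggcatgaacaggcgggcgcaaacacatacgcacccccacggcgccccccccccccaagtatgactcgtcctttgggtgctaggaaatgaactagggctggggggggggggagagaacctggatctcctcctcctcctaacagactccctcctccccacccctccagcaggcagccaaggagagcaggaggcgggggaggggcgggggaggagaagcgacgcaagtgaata
Lef1, start 131112791: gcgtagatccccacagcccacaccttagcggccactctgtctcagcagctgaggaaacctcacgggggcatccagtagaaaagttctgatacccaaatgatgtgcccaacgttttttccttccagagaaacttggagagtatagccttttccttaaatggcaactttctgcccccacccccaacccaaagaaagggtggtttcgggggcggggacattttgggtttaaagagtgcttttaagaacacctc
The former has 66.4% G and C and 11 CpG pairs, and the latter has 50.8% and 6 CpG pairs. The medians over all 32851 RefSeq promoters were 52.4% and 6.

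Tcf7l1 encodes the factor formerly called Tcf3 in mouse embryonic stem cells. The gene lies on chromosome 6 from 72626371 to 72789045 and starts at the higher coordinate. On day 2 it carried 3 H3ac peaks around its start, of which the best (72787892 to 72788890, score 248.40, rank 1748) lay 155 bp downstream. On day 4 a single peak of 1968 bp (72786962 to 72788929, score 306.01, rank 1190) spanned the places of the 2 downstream peaks of day 2. On day 6 no peak was listed at the start. The best peak stood at the 89.9 percentile of the day 2 list and at the 90.8 percentile of the day 4 list.

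The day 6 call at Tcf7l1 came from elsewhere. That peak (72615054 to 72617977, score 66.85, rank 4654 of 5553) lay 8394 bp beyond the far end of the gene, 171068 bp from its start, and overlapped the neighbouring gene Tgoln1, which encodes a protein of the trans-Golgi network. Peaks at Tgoln1 were present on all 3 days. Counting only peaks with no other protein-coding gene nearer, Tcf7l1 had H3ac on days 2 and 4 and none on day 6, like the other 3 Tcf/Lef genes. A weak HDAC1 peak (score 53.54, rank 4284) lay in the gene body, 111203 bp from the start. It overlapped no H3ac peak.

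Tcf7l2, which encodes the factor also called Tcf4, lies on chromosome 19 from 55741797 to 55933659 and starts at the lower coordinate. A pair of day 2 peaks lay 638 and 1652 bp downstream of the start, with scores of 102.93 and 185.67. On day 4 peaks lay in the same places, of scores 101.50 and 358.75, and the better ranked 812 of 12945. The bases under H3ac went from 2156 on day 2 to 3281 on day 4 and 0 on day 6. The best peak stood at the 83.2 percentile of the day 2 list and at the 93.7 percentile of the day 4 list. Weak internal peaks of score 52.61 on day 2 and 53.14 on day 4 lay more than 10 kb apart from each other. The nearest day 6 peak was 614 kb away and the nearest HDAC1 peak 632 kb away.

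Tcf7, which encodes T cell factor 1, had only weak peaks. The gene lies on chromosome 11 from 52246527 to 52283383 and starts at the higher coordinate. Its day 2 peak (52284539 to 52284922, score 53.68, rank 15452) lay 1525 bp upstream of the nearest start, and its day 4 peak (52282406 to 52282935, score 56.59, rank 10947) covered the start site at 52282595. These peaks did not overlap each other, and both were near the lowest score listed. No day 6 or HDAC1 peak lay within 10 kb. The nearest of each were 12.9 and 18.7 kb from the gene, on the side of its neighbour Skp1.

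Lef1, Tcf7l1 and Tcf7l2 span 114, 163 and 192 kb, and a long gene offers more room for a peak. Whether length bears on these counts was not tested. On days 2 and 4 all 3 genes also had H3ac within 1 kb of a start site. Of the 2429 protein-coding genes of 100 kb or more, 63.2%, 59.6% and 34.3% had H3ac in the gene or within 10 kb on days 2, 4 and 6, and 34.6% had HDAC1. These 3 genes gave 3, 3 and 1 for H3ac and 2 for HDAC1.

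**Figure D2:**
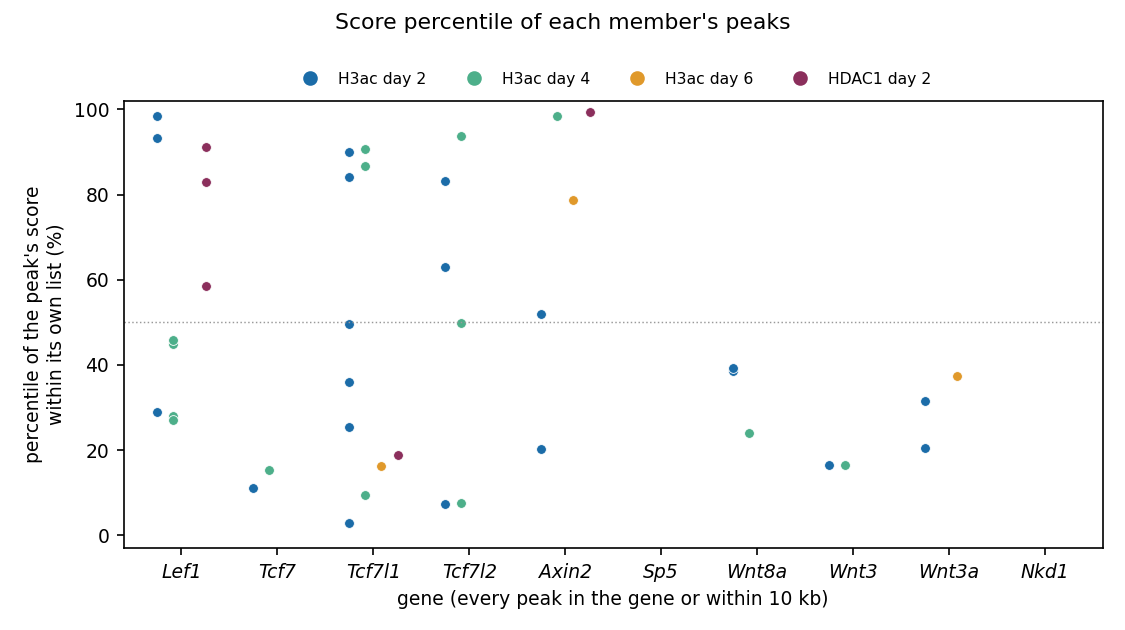
Score percentile within its own list (y axis, share of the list's peaks that score lower) of every peak in or within 10 kb of each of the 10 genes (x axis), coloured by list. The best Lef1 peak is at 98.4 within the day 2 list and 45.9 within the day 4 list, the best Axin2 peaks are at 52.0, 98.4 and 78.6 within the 3 H3ac lists, and Sp5 and Nkd1 have no points. Points of different lists cannot show whether the level changed.

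Of the target genes Axin2, Sp5 and Nkd1, only Axin2 had H3ac peaks, and its length under H3ac was greater on each later day. Axin2 encodes a scaffold of the beta-catenin destruction complex. It lies on chromosome 11 from 108917828 to 108950783, and its RefSeq promoter has its start at 108920349. On day 2 there were 2 narrow peaks, 108920364 to 108920898 (score 83.15, rank 8324) and 108921667 to 108922116 (score 57.58, rank 13839). On day 4 there was 1 peak from 108921332 to 108923673 with a score of 588.54, rank 205 of 12945. On day 6 a peak from 108920151 to 108924520 (score 249.43, rank 1186 of 5553) covered the start site, the places of both day 2 peaks and the whole day 4 peak.

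At Axin2 H3ac peaks covered 985 bp on day 2, then 2342 bp (day 4) and 4370 bp (day 6). The day 6 peak was among the widest of its list, 2.85% of day 6 peaks being at least as wide, and for the day 4 peak the share was 1.71%. Day 6 peaks were wider in general, so the ratio was set beside that of other genes. From day 2 to day 6 the ratio was 4.44 at Axin2, and the median over the 6238 genes with peaks on both days was 1.40, with 3.99% of them at or above the ratio of Axin2. From day 2 to day 4 it was 2.38 against a median of 1.01, with 6.22% at or above. From day 4 to day 6 it was 1.87 against 1.41, with 25.8% at or above. The ratio was set beside all genes for Axin2 alone. Its 985 bp on day 2 was below the median of 1332 bp over genes with a day 2 peak, and a shorter day 2 length makes the ratio larger. Of the other described genes with peaks on days 2 and 6, Wnt3a went from 691 to 2763 bp, at different sites. Tcf7l1 went from 4384 to 1607 bp.

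An HDAC1 peak of score 1167.58, rank 37 of 5286, lay upstream of Axin2 from 108915923 to 108916401. It was 479 bp wide, lay 1427 bp outside the annotated gene and 3948 bp before the start site, and overlapped no H3ac peak on any day. High-scoring HDAC1 peaks of this kind were common in the library: of the 50 best HDAC1 peaks, 0 overlapped a day 2 H3ac peak and 49 overlapped no H3ac peak of any day. What sets these scores was not tested.

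Sp5 and Nkd1 carried no listed peak at all. Sp5 spans 2804 bp on chromosome 2 from 70474923 to 70477726, and its nearest H3ac peaks were 83.8 kb away on day 2, 184 kb on day 4 and 183 kb on day 6, with the nearest HDAC1 peak at 81.8 kb. Nkd1 encodes naked cuticle 1, an inhibitor that acts on Dishevelled. Its nearest H3ac peaks were 52.5, 32.8 and 159 kb away, and its nearest HDAC1 peak 229 kb. Of the 3 target genes, then, Axin2 had peaks on every day and the others on none.

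The promoters of Axin2 and Sp5 are printed as examples of a target gene with peaks on every day and of a target gene without any. The day 6 peak of Axin2 covered the last bases before the start and the best day 2 peak began 15 bp after it, and Sp5 had no peak in any list. They lie at chr11:108920099-108920348 and chr2:70474673-70474922, both on the plus strand and ending 1 base before the start.
Axin2: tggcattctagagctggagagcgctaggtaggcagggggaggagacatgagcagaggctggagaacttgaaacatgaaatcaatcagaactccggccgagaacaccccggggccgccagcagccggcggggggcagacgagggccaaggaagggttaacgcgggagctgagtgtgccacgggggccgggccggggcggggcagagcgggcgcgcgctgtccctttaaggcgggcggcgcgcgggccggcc
Sp5: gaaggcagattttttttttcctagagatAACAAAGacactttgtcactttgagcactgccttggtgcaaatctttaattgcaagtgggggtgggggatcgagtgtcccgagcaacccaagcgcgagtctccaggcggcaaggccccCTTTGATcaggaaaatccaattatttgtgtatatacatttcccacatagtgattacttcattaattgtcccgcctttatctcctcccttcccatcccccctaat
Sp5 holds 2 of the Tcf/Lef-type runs, CTTTGTT on the opposite strand from 222 to 216 bases before the start and CTTTGAT on the gene's own strand from 104 to 98 bases before it. Axin2 holds none in this window. The Axin2 window has 69.2% G and C and 24 CpG pairs, and Sp5 has 46.0% and 6.

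Of the 14 RefSeq start sites of the 9 genes, 3 had such a run in the 250 bases upstream. The others were the internal starts of Lef1 at 131156294 (CTTTGTA, on the opposite strand) and of Tcf7l2 at 55895321 (CTTTGTT). H3ac touched neither of these windows on any day. Most promoter windows were untouched. With the 50 bases after each start included, H3ac touched 21.3%, 20% and 15.5% of all 32851 on days 2, 4 and 6. Over all 32851 RefSeq promoters of the table, 14.8% held at least 1 of the 4 runs in the same 250 bases, with CTTTGAA in 4.46%, CTTTGAT in 3.21%, CTTTGTA in 3.20% and CTTTGTT in 5.03%. These are matches of letters only, and the peak lists do not measure Tcf/Lef binding.

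**Figure D3:**
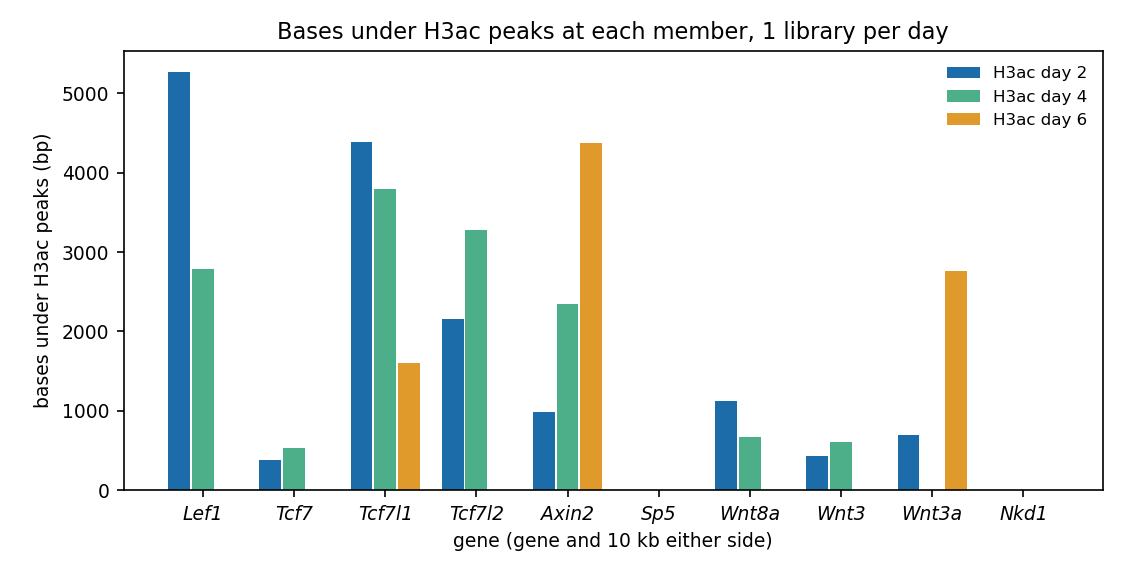
Bases under H3ac peaks in each gene and 10 kb either side (y axis, bp, from 0) for each of the 10 genes (x axis), with 1 bar per day and 1 library behind each bar. Lef1 is highest on day 2 (5265 bp) and Axin2 on day 6 (4370 bp), and the day 6 bar of Tcf7l1 (1607 bp) is the peak at the neighbouring gene Tgoln1.

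Among the ligand genes, Wnt3a was the only one with a day 6 peak. Wnt3a lies on chromosome 11 from 59248036 to 59290751 and starts at the higher coordinate. Its day 6 peak ran from 59288366 to 59291128, was 2763 bp wide and covered the start site. Its score was 96.67, rank 3474 of 5553, which is below the day 6 median. No other protein-coding gene lay within 10 kb of Wnt3a, and the nearest to this peak, Wnt9a, was 15721 bp away.

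The day 2 calls at Wnt3a lay elsewhere. They were a peak of score 63.60 in the gene body, 26003 bp from the start, and a peak of score 57.78 that lay 9822 bp upstream and nearer to Wnt9a (5846 bp). The gap on day 4 therefore does not describe 1 site that was marked, unmarked and marked again. The nearest day 4 peak was 19.9 kb from the gene. No HDAC1 peak lay closer than 159 kb.

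The promoter of Wnt3a is printed because it came under a peak only on day 6. It lies at chr11:59290752-59291001 on the minus strand and is written in the direction of the gene.
Wnt3a: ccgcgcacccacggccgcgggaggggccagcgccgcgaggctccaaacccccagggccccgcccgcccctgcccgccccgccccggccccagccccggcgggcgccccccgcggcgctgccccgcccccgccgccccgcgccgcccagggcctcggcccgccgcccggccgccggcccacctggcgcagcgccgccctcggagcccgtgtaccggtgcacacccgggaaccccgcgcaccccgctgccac
It has 87.6% G and C and 41 CpG pairs and no Tcf/Lef-type run. Of all RefSeq promoters, 0.0365% had at least this G and C content and 1.09% at least this number of CpG pairs. H3ac peaks touched 7005 of the 32851 RefSeq promoter windows of 300 bases on day 2, 6572 on day 4 and 5102 on day 6.

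Wnt3, needed for gastrulation in the mouse embryo, had 1 weak peak near its start on each of days 2 and 4. Wnt3 lies on chromosome 11 from 103774175 to 103818021, and the annotated span of the neighbouring gene Wnt9b reaches over its start. The day 2 peak (103774371 to 103774795, score 55.85, rank 14509) lay 196 bp downstream of the start, and the day 4 peak (103773402 to 103774003, score 57.32, rank 10798) lay 172 bp upstream. The peaks did not overlap each other, and both lay inside Wnt9b, so they cannot be given to 1 of the 2 genes. The nearest day 6 peak was 23.8 kb away, beyond the far end of the gene.

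Wnt8a, a ligand expressed in the early primitive streak, spans 5735 bp. Its day 2 peaks scored 69.21 (over the lower-coordinate end of the gene) and 68.66 (3533 bp outside it), and its day 4 peak scored 62.75 and lay 927 bp beyond the other end. No day 2 peak overlapped a day 4 peak. All 3 scores were below the medians of their lists. The nearest day 6 peak was 34.6 kb away. All 8 H3ac peaks of the 3 ligands scored below the median of their own list, as did both H3ac peaks of Tcf7.

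Day 2 peaks were compared with those of later days by overlap. Of the 21 day 2 H3ac peaks of the 10 genes, 9 (42.9%, 95% Wilson interval 24.5 to 63.5%) shared at least 1 bp with a peak of day 4, and 4 (19.0%, 7.67 to 40.0%) with a peak of day 6. The 4 were the 2 Axin2 peaks and the 2 at Tgoln1. For the 15857 day 2 peaks in or within 10 kb of any protein-coding gene, the shares were 53.9% and 37.6%. Only the HDAC1 peak inside the main Lef1 peak, 1 of 5 (20%, 3.62 to 62.4%), overlapped H3ac of day 2, against 35.3% of the 4042 HDAC1 peaks at all protein-coding genes. None of the 5 overlapped a day 4 or day 6 peak (interval up to 43.4%), against 33.0% and 21.3%. The intervals of the 10 genes include the shares of all genes for the day 4 overlap, the day 6 overlap and the 3 HDAC1 overlaps. The intervals cover counting error only and treat each peak as independent. Several peaks lie at the same gene (7 of the 21 at Tcf7l1), so the intervals may be too narrow.

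The rest of the Wnt pathway was read from 8 role lists, in which the 10 genes are included and which held 92 genes in all. H3ac was listed at 61 of the 92 (66.3%) on day 2, at 56 (60.9%) on day 4 and at 33 (35.9%) on day 6. HDAC1 was listed at 19 (20.7%). The shares of all protein-coding genes were 54.7%, 50.5%, 30.8% and 21.5%. With the 5286 best-scoring peaks of each H3ac list, 26, 33 and 32 of the 92 were called, and no share of all genes was taken at this cut. The Tcf/Lef factors had 4, 4 and 1 of 4 on the 3 days. Cytoplasmic transducers and members of the destruction complex had 13, 14 and 11 of 14 and nuclear cofactors 12, 11 and 8 of 13. Ligands had 11, 7 and 2 of 19 and secreted antagonists 5, 4 and 2 of 12. Coreceptors and genes of receptor control had 9, 8 and 5 of 14, genes of ligand release 1, 2 and 0 of 3, and target genes 6, 6 and 4 of 13. Differences between the lists were not tested.

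**Figure D4:**
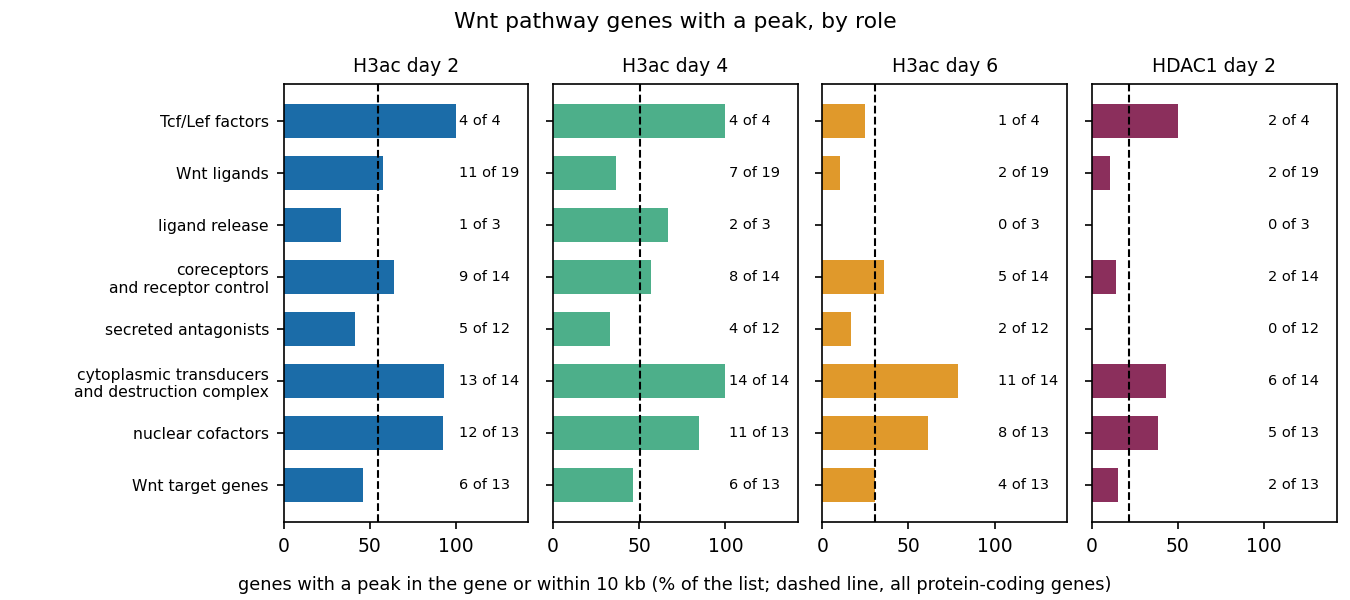
Share of the genes of each Wnt pathway list with a peak in the gene or within 10 kb (x axis, %), in 4 panels for the 4 peak lists, with counts at the right and a dashed line at the share of all protein-coding genes. Tcf/Lef factors are at 4 of 4 on days 2 and 4 and 1 of 4 on day 6, and transducers and nuclear cofactors are above the line in every panel.

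Some of the best peaks of these lists lay at a neighbour, and others at the gene itself. Among transducers, Tnks2, a tankyrase that marks axins for breakdown, had the peak ranked 22 of day 6 over its start (score 1107.31). The kinase gene Csnk1a1 had the peak ranked 80 of day 4, inside the gene (759.54). The best day 2 peak of the list, at Apc2 (786.52, rank 95), overlapped the ribosomal protein gene Rps15. The best HDAC1 peak, at Dvl1 (1294.90, rank 30), lay 57 bp outside Dvl1 and in Tas1r3. Tnks had no H3ac peak on day 2 and H3ac peaks of 55.24 on day 4 and 100.92 on day 6.

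Among nuclear cofactors, the best day 2 peak was counted for Pygo2 (412.61) but lay 9766 bp outside it, at Shc1. The best peaks of later days were at Chd8 on day 4 (482.20, also overlapping Supt16) and Ctbp2 on day 6 (764.62, also overlapping Gm35364). For HDAC1 the best was at the corepressor gene Ctbp1 (117.50, 192 bp from its start). Tle1, a Groucho corepressor, had peaks of 63.15 on day 4 and 58.52 on day 6 and none on day 2. Among coreceptors and receptor control, the best were at Rnf43 on day 2 (152.03), Lgr4 on day 4 (213.68) and Lrp5 on day 6 (352.69), each of which overlapped another gene (Supt4a, Ccdc34 and Ppp6r3) and lay outside the named gene. The best HDAC1 peak lay in the body of Ror2 (257.14). Ryk, a Wnt receptor, had peaks within 200 bp of its start on day 4 (128.25, at 196 bp) and day 6 (97.30, at 158 bp) and none on day 2.

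Of the ligands, the best peaks were at Wnt5b on day 2 (182.61, also in Fbxl14) and at Wnt10b on days 4 and 6 and for HDAC1 (308.16, 199.84 and 74.82), all 3 in Arf3 and more than 6 kb from Wnt10b. Wnt8b (88.52) and Wnt16 (68.19) had a peak on day 4 only. Wls, which carries Wnt proteins to the cell surface, had a day 4 peak over its start (462.80, rank 418) and none on days 2 and 6. Notum, which inactivates Wnt proteins, had a day 2 peak in the gene (56.26) and was called on day 4 (95.59). Only 125 bases of that day 4 peak lay within 10 kb of Notum. Among antagonists, Sfrp2 led on day 4 with a peak over its start (255.46), and the best peaks at Sfrp4 on day 2 (209.25) and day 6 (54.71) lay in Epdr1. Dkk2 (56.57) and Sfrp1 (102.11) had a peak on day 4 only and Sost (54.43) on day 6 only. Of the targets, Ccnd1, which encodes cyclin D1, had the best day 2 peak (1042.73, rank 30), 158 bp outside the gene, and Axin2 led the list on days 4 and 6 and for HDAC1. Msx2 had a peak on day 4 only (82.58). Of the 13 targets, Sp5, Nkd1, T, Cdx1, Cdx2 and Cdx4 had no H3ac peak on any day, and Axin2, Ccnd1, Sp8 and Tnfrsf19 had one on all 3. These 6 and 4 of 13 were not tested against all protein-coding genes, where the shares were 38.7% and 27%.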

How the data were processed

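Aligned with Bowtie 0.12.8 to mm10, per the submitters' processing notes, the 4 ChIP libraries gave 1 deposited peak list each. Peak names begin with MACS, and its version and settings were not given in the sources used here. The deposited value per peak is a score whose scale is not stated, so the score ranked or filtered peaks within a list only. Read depth is unknown. There were 4 input libraries, which have no list of their own.

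Genes (chromosomes 1 to 19, X and Y) and 250 bases before to 50 after each start site came from RefSeq tables of GRCm38.p6. BED starts were raised by 1, so coordinates are 1-based. Overlap meant at least 1 bp. Shares have 95% Wilson intervals. Distances, overlaps and windows were computed in Python 3.11.15 with pandas 2.3.3 and scipy 1.17.1, and were tested on simulated data: of 100 peaks planted within 10 kb of a gene 100 were found, and of 100 planted outside 0.

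Members and lists were chosen with earlier results of these data known. Named by rule were the 10 genes, the highest-scoring gene of each role list and library, and the genes of a list with a peak on day 4 or 6 and none on day 2, where there were at most 3. T, Cdx1, Cdx2, Cdx4, Sp8 and Tnfrsf19 were named after their values were seen. The start site rule was added after the data were seen. No test was possible with 1 library per target and day. Alternatives were windows of 5 and 25 kb, gene ends, midpoints, nearest genes, stricter score limits and other overlaps.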

Additional observations from a re-analysis of the deposited data

How the results depend on the processing

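Of 87 values recomputed under alternatives, 65 stayed within 1.5 times the reported count, or within the interval of the reported share, and 22 did not. Some of the 65 could not move, because a cut to 5286 peaks leaves the HDAC1 list whole. The intervals of shares were also wide (3.62 to 62.4% for HDAC1 peaks overlapping day 2 H3ac), so staying within them says little. With the 5286 top-scoring peaks of each list, the 10 genes gave 3 on day 2 (Lef1, Tcf7l1, Tcf7l2) and 3 on day 4 (Tcf7l1, Tcf7l2, Axin2) beside 3 on day 6. The 3 of day 6 were Tcf7l1, Axin2 and Wnt3a, so the genes were not the same on each day. The day 6 call at Tcf7l1 was the peak at Tgoln1. The share of all genes at this cut was not taken. The Wnt pathway then gave 26 and 33 genes on days 2 and 4, and the summed bases under H3ac of the 10 genes came to 7827 and 7546, instead of 15416 and 14018. With the higher-scoring 50% of each list, the 10 genes gave 4, 3 and 1 on days 2, 4 and 6 and the pathway 33, 37 and 15, with 12 for HDAC1. Within 1 kb of a gene end the 10 genes gave 5 on day 2, 1 on day 6 and 0 for HDAC1, and the pathway 6 for HDAC1. Within 1 kb of a RefSeq start site they gave 5 on day 2 and 1 for HDAC1. With 25 kb either side, day 6 gave 5 of the 10 genes and 17263 bases instead of 8740, and HDAC1 gave 32 pathway genes. With 5 kb either side, or with nearest genes only, Tcf7l1 had no day 6 peak. Apart from the start site rule, the share of all genes was not taken under any of these alternatives. Their counts therefore do not show whether these genes differ from others. No paired analysis was possible because there was 1 library per target and day. Depth is unknown, so a missing peak cannot be told apart from too few reads.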
